A study of Mus musculus with 3 samples.

Results

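Heat shock and chaperone genes of mouse brain myeloid cells were described through 10 genes chosen by symbol, namely Hspa1a, Hspa1b, Hspa8, Hspa5, Hsp90aa1, Hsp90ab1, Hsph1, Dnaja1, Dnajb1 and Hspb1, and all 10 were found among the 32285 genes counted. Cells were taken from brains of Apoe knockout mice on day 4, sorted by flow cytometry as CD45int CD11b+, a gate that takes mainly microglia, and the transcripts of single cells were captured in droplets, read at their 3′ ends and counted by unique molecular identifier (UMI). There were 3 libraries, each from a pool of 4 mice. One came from sham mice given PBS, one from mice induced for neuromyelitis optica spectrum disorder (NMOSD) and given a control peptide, and one from NMOSD mice given APOE130-149, a peptide named for a stretch of apolipoprotein E. All mice lacked Apoe, the mice of a pool could not be told apart, and no wild-type library was used here. The labels state neither the ages of the mice nor the sequence of the control peptide.

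Chaperones bind unfolded or unstable proteins and help them to fold, to be disaggregated or to be degraded. HSP70 proteins do so in cycles of ATP hydrolysis that J proteins start and nucleotide exchange factors end, while HSP90 proteins act on nearly folded clients such as kinases and receptors. When unfolded protein accumulates in the cytosol, heat shock factor 1 is released and activates the inducible members, and in the endoplasmic reticulum the unfolded protein response does the same for its own chaperones. Microglia, the resident macrophages of the brain, carry constitutive chaperones at all times and induce others under stress.

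The inducible HSP70 genes Hspa1a and Hspa1b lie on the minus strand of chromosome 17, at chr17:34969190-34972156 and chr17:34956436-34959238 (GRCm38). Their coding sequences were 99.4% identical, 1915 of 1926 aligned bases. The sequences after the stop codon were 47.5% identical, and of the 451 stretches of 50 bases in the last 500 bases of either transcript 0 were found in the other, so 3′ end reads in that window differ between the genes and reads inside the coding sequence need not. Hspa1a is also overlapped on the opposite strand by Gm20481, and no source used here states whether counting used strand, so reads of that pair may be mixed. Dnaja1 (chr4:40722150-40737149) is likewise overlapped by Smu1 on the opposite strand. Because reads inside their coding sequences need not differ, Hspa1a and Hspa1b are given alone and as the sum of both. Hspa8 lies at chr9:40800984-40810087, with 3 small nucleolar RNA genes inside it, and Hspa5 at chr2:34771970-34777547. Hsp90aa1 lies at chr12:110690605-110702728 and Hsp90ab1 at chr17:45567775-45573271. Hsph1 lies at chr5:149614287-149636376, Hspb1 at chr5:135887919-135889563 and Dnajb1 at chr8:83608193-83612653.

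Promoters are shown because the inducible pair differed between libraries and the other chaperones mostly did not. RefSeq promoters (GRCm38.p6, from 250 bases before to 50 bases after the transcript start) were found for 7 of the 10 genes, and those of Hspa8, Hsp90aa1 and Hsp90ab1 were not. They are written 5′ to 3′ on the gene's own strand for Hspa1a at chr17:34972107-34972406, Hspa1b at chr17:34959189-34959488, Hsph1 at chr5:149636287-149636586 (the first of its 2 promoters) and Hspa5 at chr2:34771840-34772139. Capitals mark matches, on either strand, to the heat shock element of 2 units, GAANNTTC or TTCNNGAA, to the heat shock element of 3 units, in which GAA, TTC and GAA follow each other 2 bases apart and which therefore overlaps both short forms, to the CCAAT box (for Hspa1a and Hspa1b, where it reads ATTGG), and for Hspa5 to the endoplasmic reticulum stress element, CCAAT followed after 9 bases by CCACG.
Hspa1a: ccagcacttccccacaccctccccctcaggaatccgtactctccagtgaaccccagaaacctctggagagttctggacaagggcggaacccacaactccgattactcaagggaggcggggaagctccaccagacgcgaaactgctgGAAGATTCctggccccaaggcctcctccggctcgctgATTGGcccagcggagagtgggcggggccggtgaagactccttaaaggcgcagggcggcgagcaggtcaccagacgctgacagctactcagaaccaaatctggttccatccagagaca
Hspa1b: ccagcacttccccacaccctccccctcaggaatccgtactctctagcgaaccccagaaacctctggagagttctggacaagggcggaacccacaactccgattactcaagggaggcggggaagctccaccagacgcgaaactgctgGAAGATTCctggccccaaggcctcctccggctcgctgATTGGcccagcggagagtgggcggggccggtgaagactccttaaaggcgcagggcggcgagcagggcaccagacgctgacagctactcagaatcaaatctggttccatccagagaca
Hsph1: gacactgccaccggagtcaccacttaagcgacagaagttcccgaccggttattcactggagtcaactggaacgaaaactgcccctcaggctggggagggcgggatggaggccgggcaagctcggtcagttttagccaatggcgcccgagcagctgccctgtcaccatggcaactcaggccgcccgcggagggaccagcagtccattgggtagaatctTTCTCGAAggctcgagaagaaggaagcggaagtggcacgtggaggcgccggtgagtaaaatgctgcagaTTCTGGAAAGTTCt
Hspa5: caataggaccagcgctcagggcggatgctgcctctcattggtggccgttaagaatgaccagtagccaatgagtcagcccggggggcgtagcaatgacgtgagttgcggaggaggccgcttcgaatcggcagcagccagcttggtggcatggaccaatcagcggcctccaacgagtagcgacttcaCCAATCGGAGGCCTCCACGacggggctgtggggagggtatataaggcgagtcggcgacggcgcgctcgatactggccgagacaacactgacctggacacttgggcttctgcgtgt

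The Hspa1a and Hspa1b promoters shared 296 of 300 bases (98.7%). They differed by C44T, T47C, T249G and C276T, with the Hspa1a base first and positions counted from 1 at the 5′ end, and none of these lay in a marked match. Each held 1 GAANNTTC, 104 bases before the start, and 1 CCAAT box, 67 bases before it. Hsph1, the HSP110 nucleotide exchange factor, held the element of 3 units 36 bases after the start, and Hspb1 held 2 matches to GAANNTTC. Dnaja1 held 1 in the first of its 3 promoters, and neither of the 2 Dnajb1 promoters held an exact match to these heat shock element forms. Among 32851 RefSeq promoters of the same length, 15.1% held GAANNTTC or TTCNNGAA, 0.603% the form of 3 units, 37.4% a CCAAT box and 0.119% the stress element found in Hspa5, so matches to the short forms are common. A match describes letters and not a bound site. Only exact matches were searched for, so the lack of a match does not show that an element is absent.

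The libraries held 4674, 5306 and 2175 barcodes and 32712199, 61469677 and 32060750 UMIs in the sham, control peptide and APOE130-149 libraries. Of these barcodes 4231, 5011 and 2025 passed a filter of 500 detected genes or more and 10% mitochondrial UMIs or less. Marker genes of 13 cell types then assigned 2878, 4035 and 1573 cells as microglia-like, 18, 15 and 17 as border-associated macrophage-like, 31, 67 and 38 as neutrophil-like and 25, 46 and 22 as monocyte-like, without any of the 10 chaperone genes. All 11 microglia markers, P2ry12 and Tmem119 among them, were detected in microglia-like cells of each library, at a summed 23419, 25307 and 25852 CPM, the UMIs of a gene scaled to a common total per library and cell type. Between 16.9% and 30.2% of kept cells passed no gate. The sham and control peptide libraries shared 9 barcodes, the control peptide and APOE130-149 libraries shared 3, and the sham and APOE130-149 libraries shared 0. Apoe itself was counted at 73.5, 103 and 119 CPM in microglia-like cells, and since 3′ end counts can lie outside a deleted part this does not check the genotype.

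Each group is 1 library, so differences between groups lack replicates and no p-value is given. Values are CPM of the UMIs summed over the cells of a type, and ranges in brackets are exact 95% Poisson intervals for a level, exact conditional intervals for a ratio and exact Clopper-Pearson intervals for a share of cells. They cover counting error only, not differences between mice, cell preparation or libraries. Intervals for levels and ratios take each UMI as independent. Where a gene's UMIs lie mostly in few cells, as for Hspa1a and Hspa1b, these intervals are too narrow for the sampling of cells too. A gene was called apart when its ratio was at least 1.5-fold with an interval excluding 1, among genes with at least 10 CPM in either library. Hspb1 did not reach 10 CPM in any library, so 9 of the 10 genes could be called. The 3 comparisons share libraries in pairs and are not independent of each other.

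In microglia-like cells, the inducible HSP70 pair was the part of the chaperone set that stood apart, and it did so in the APOE130-149 library. Hspa1a was measured at 8.27 [7.24–9.42] CPM for sham, 11.9 [10.9–12.9] for the control peptide and 29.5 [27.4–31.8] for APOE130-149. Hspa1b was measured at 15.1 [13.7–16.6], 11.04 [10.1–12.02] and 29.7 [27.6–31.9] CPM. The APOE130-149 library was the highest for both genes, while the order of the other libraries was opposite for Hspa1a and Hspa1b. Summed, the pair stood at 23.3, 22.9 and 59.2 CPM.

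**Figure D1:**
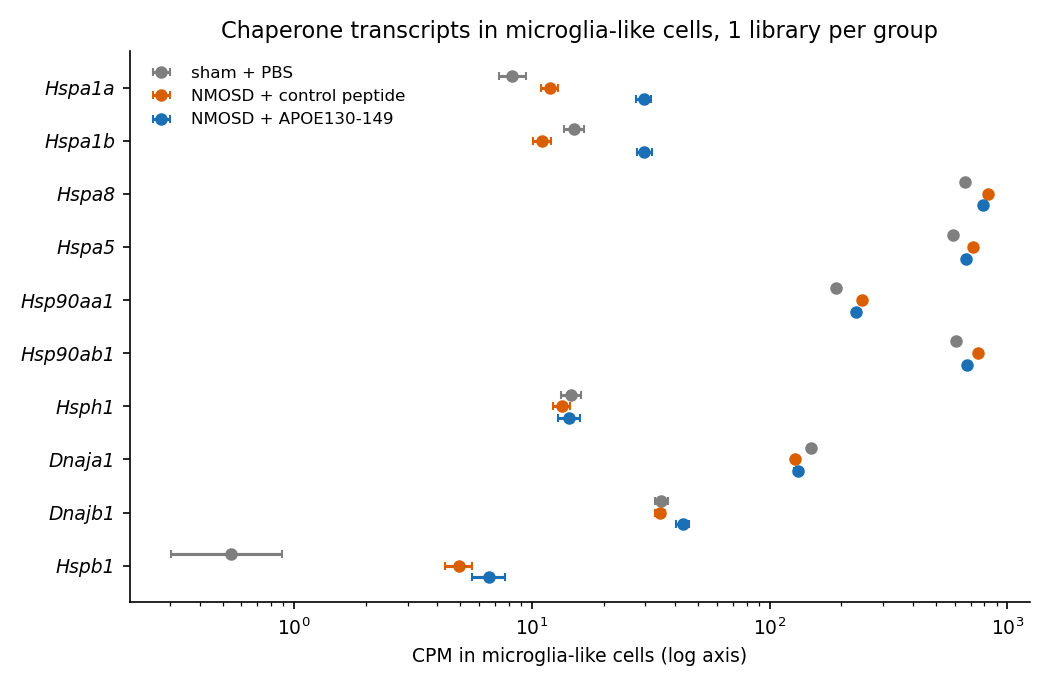
Level of each of the 10 genes in microglia-like cells (CPM, log axis), with 1 point per library and exact 95% Poisson intervals, which are narrower than the point for the abundant genes. Hspa1a and Hspa1b were highest in the APOE130-149 library at 29.5 and 29.7 CPM, and Hspb1 was lowest in sham at 0.540 CPM.

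APOE130-149 was compared with the control peptide to ask what the peptide changes in NMOSD mice. Of the 9 genes, 2 were at least 1.5-fold higher and 0 lower, where 0.585% of 8377 genes were apart, 0.442% higher and 0.143% lower. These were Hspa1a at 2.49-fold [2.22–2.78] and Hspa1b at 2.69-fold [2.40–3.01], and the pair together was 2.58-fold [2.39–2.80] higher. Lower ratios were found for 99.93% of genes tested against Hspa1a and for 99.94% against Hspa1b. With the marker gate made 2 times as strict their log2 ratios were 1.24 and 1.41, against 1.31 and 1.43. Inside microglia-like cells the summed markers of other types stood, with the control peptide and APOE130-149, at 261 and 307 CPM for border-associated macrophages, 259 and 312 for neutrophils, 71.7 and 61.3 for monocytes and 29.4 and 10.05 for erythroid cells, and mitochondrial UMIs at 2.67% and 2.38%; their part in the difference was not tested. Dnajb1, the J protein that works with inducible HSP70, was next among the 9 genes. It was measured at 34.6 [33.0–36.4] CPM with the control peptide and 43.1 [40.5–45.8] with APOE130-149. Its ratio of 1.24 [1.15–1.34] did not reach 1.5-fold. Hspb1, below 10 CPM in both libraries, had a ratio of 1.34 [1.09–1.64].

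The constitutive chaperones lay close to 1 in that comparison. Hspa8, the constitutive cytosolic HSP70, was measured at 827 CPM with the control peptide and 787 with APOE130-149, a ratio of 0.952 [0.936–0.969]. Hsp90ab1, the constitutive HSP90, was measured at 750 and 672 CPM, a ratio of 0.896 [0.880–0.913]. Hsp90aa1, its stress-responsive relative, had a ratio of 0.939 [0.909–0.969], and Hspa5, the HSP70 of the endoplasmic reticulum also known as BiP, one of 0.937 [0.920–0.9549]. Dnaja1, a J protein partner of HSP70, had a ratio of 1.03 [0.984–1.07] and Hsph1 one of 1.08 [0.945–1.23]. The median log2 ratio over the 9 genes was 0.04 beside 0.01 over all 8377.

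The control peptide library was compared with sham to ask what NMOSD induction changes, in a contrast where the injected substance differs too. Of the 9 genes 0 were apart by the rule, where 2.65% of 8493 genes were apart, 1.55% higher and 1.1% lower. With TMM scaling in place of CPM 74.9% of the genes apart were higher, against 58.7% with CPM. Below that fold, 5 genes were higher with intervals that excluded 1, Hspa1a and 4 others. The share of all genes higher by this looser rule was not computed, so nothing is drawn from that count. Hspa8 was measured at 663 CPM in sham and 827 with the control peptide, a ratio of 1.25 [1.23–1.27]. Hsp90aa1 was measured at 191 and 245 CPM (ratio 1.28 [1.24–1.33]), Hsp90ab1 at 608 and 750 (1.23 [1.21–1.26]) and Hspa5 at 590 and 717 (1.21 [1.19–1.24]). Between 95.4% and 97.3% of genes tested had lower ratios than these 4. In the same cells the summed markers stood, in sham and with the control peptide, at 33.3 and 71.7 CPM for monocytes, 196 and 259 for neutrophils, 3.71 and 88.6 for choroid plexus and 0.324 and 29.4 for erythroid cells (with Clic6, Hbb-bt and Alas2 of the last 2 lists at 0 in sham), and their part in these differences was not tested.

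Dnaja1 and Hspa1b were lower. Dnaja1 was measured at 150 CPM in sham and 127 with the control peptide, a ratio of 0.852 [0.819–0.887]. Of all genes tested, 23.0% had lower ratios than Dnaja1 and 3.63% had lower ratios than Hspa1b. Hsph1 had a ratio of 0.914 [0.806–1.04] and Dnajb1 one of 0.990 [0.914–1.07]. Hspa1a had a ratio of 1.44 [1.23–1.68] and Hspa1b one of 0.733 [0.643–0.835], and their sum one of 0.982 [0.890–1.08]. The mix of UMIs within the pair differed as well, with 230 of Hspa1a and 419 of Hspa1b in sham, 570 and 530 with the control peptide and 723 and 727 with APOE130-149. The median log2 ratio over the 9 genes was 0.28 beside −0.08 over all genes tested.

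Between APOE130-149 and sham, 2 of the 9 genes were at least 1.5-fold higher and 0 lower, where 2.81% of 8513 genes were apart, 1.72% higher and 1.09% lower. With median-of-ratios scaling 71.4% of the genes apart were higher, against 61.1% with CPM. Hspa1a was 3.57-fold [3.07–4.16] and Hspa1b 1.97-fold [1.74–2.23] higher, and the pair 2.54-fold [2.31–2.79]. Hspa8 had a ratio of 1.19 [1.16–1.21], Dnajb1 one of 1.23 [1.13–1.34] and Dnaja1 one of 0.876 [0.836–0.917].

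**Figure D2:**
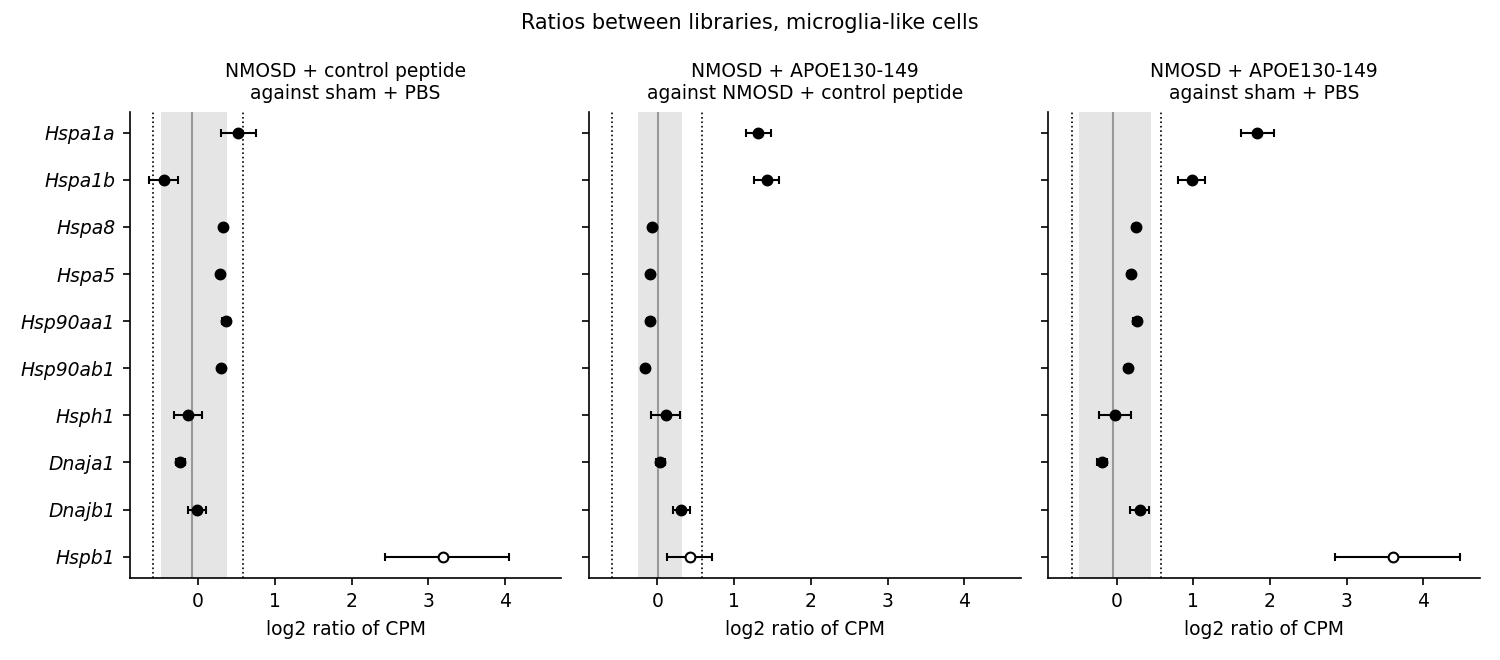
Log2 ratio of CPM in microglia-like cells for each of the 10 genes in the 3 comparisons, with exact 95% intervals, dotted lines at 1.5-fold, the median of all genes tested as a grey line and their central 95% as a grey band. Open points mark Hspb1, which was below 10 CPM throughout. Hspa1a and Hspa1b stood outside the band and past the dotted line in both comparisons with APOE130-149, while Hspa8, Hspa5, Hsp90aa1 and Hsp90ab1 lay inside the lines throughout.

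Hspb1, a small heat shock protein that binds unfolding proteins without ATP, was rare in microglia-like cells. It was measured at 0.540 [0.302–0.890] CPM for sham, 4.92 [4.31–5.59] for the control peptide and 6.58 [5.60–7.67] for APOE130-149. The sham value rests on 15 UMIs in 9 cells, so its ratios, 9.11 [5.41–16.5] for the control peptide and 12.2 [7.17–22.3] for APOE130-149 against sham, are of a gene near the limit of detection. Hspb1 was detected far more strongly in cells with endothelial markers, at 250.8 [130–438] CPM in 5 cells of the control peptide library and 590 [463–742] CPM in 11 cells of the APOE130-149 library, and in cells with choroid plexus markers, at 62.6 CPM in 31 cells and 96.6 CPM in 7. In the same libraries microglia markers stood at 67.8% and 40.2% of the microglia-like level in the cells with endothelial markers. They stood at 18.6% and 31.8% in those with choroid plexus markers, so neither set held RNA of 1 cell type only. Choroid plexus markers, Ttr among them, were detected inside the microglia-like cells at a summed 3.71 CPM in sham (4 of 5 markers, Clic6 at 0), and in the NMOSD libraries at 88.6 and 68.4 CPM (control peptide, APOE130-149), both with 5 of 5. The summed endothelial markers were 29.8, 29.9 and 35.5 CPM there, with Ly6c1 at 0 in sham. The part of either cell type's RNA in the Hspb1 difference was not tested.

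The pair and the constitutive genes differed in how their UMIs were spread over cells. Hspa8 was detected in 95.9%, 97.4% and 97.8% of microglia-like cells and Hspa5 in 92.9%, 95.4% and 96.1%. A UMI of the pair was detected in 8.27% [7.29–9.34] of sham cells, 9.91% [9.01–10.9] of control peptide cells and 20.2% [18.2–22.2] of APOE130-149 cells. After each cell was thinned to 3000 UMIs, which left 2796, 3956 and 1533 cells, the shares for the pair were 4.04%, 4.25% and 9.39%, so the order held at equal depth. No cell type here is known to lack these genes, so no share from free RNA could be set. Neutrophil-like cells gave the lowest shares, 3.23%, 2.99% and 2.63% of cells, at median depths of 11515, 10008 and 12164 UMIs, where microglia-like cells had 8302, 8019 and 10423.

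The extra UMIs in the APOE130-149 library lay mostly in cells with many of them. Cells with at least 10 UMIs of the pair made up 0.452% [0.241–0.771] of microglia-like cells for sham, 0.471% [0.284–0.734] for the control peptide and 3.31% [2.48–4.31] for APOE130-149. These 13, 19 and 52 cells held 30.05%, 22.1% and 53.7% of the pair's UMIs. The highest cell carried 22, 23 and 39 UMIs. At equal depth, in cells thinned to 3000 UMIs, 0, 0 and 1 cells had at least 10 UMIs of the pair, and 0.2504%, 0.253% and 1.17% had at least 5. Both genes were found together, without thinning, in 36, 41 and 57 cells, Hspa1a alone in 76, 234 and 154 and Hspa1b alone in 126, 125 and 106.

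The pair was set beside immediate early genes, which respond quickly to stimuli, tissue dissociation among them. Of 16 such genes with at least 10 CPM, 16 were at least 1.5-fold higher with the control peptide than in sham, where 1.55% of all genes tested were (median log2 ratio 2.07, Klf4 highest at 11.6-fold and Atf3 lowest at 1.81-fold), and 7 were higher with APOE130-149 than with the control peptide, where 0.442% of all genes tested were (median 0.54, Klf4 highest at 1.98-fold and Btg2 lowest at 1.13-fold). Thinned cells of each library were ordered by UMIs of that list and cut into 3 groups of equal size, lowest, middle and highest. The pair stood at 9.66, 15.7 and 48.6 CPM in these groups of sham, at 14.7, 30.3 and 27.8 with the control peptide, and at 31.96, 93.3 and 84.8 with APOE130-149. The ratio of the highest to the lowest group was 5.04 [3.31–7.92], 1.90 [1.37–2.66] and 2.65 [1.90–3.76]. Dnajb1 also had higher levels in the highest group, with ratios of 1.69 [1.27–2.27], 1.77 [1.41–2.24] and 1.5 [1.06–2.14], whereas Hsp90ab1 had lower ones, with ratios of 0.906, 0.784 and 0.812. Hsph1 had a ratio of 0.509 [0.314–0.810] with the control peptide and intervals including 1 in the other libraries. Hspa8, Hsp90aa1, Dnaja1 and Hspa5 lay between 0.890 and 1.06. Of these, Hspa8 had intervals below 1 with the control peptide, at 0.903 [0.859–0.949], and with APOE130-149, at 0.910 [0.839–0.987]. So did Hspa5 with the control peptide, at 0.890 [0.844–0.938], while their other intervals and those of Hsp90aa1 and Dnaja1 included 1.

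Groups of cells with nearby immediate early counts could then be set side by side, though their medians were not equal. The highest group of the control peptide library had a median of 44 immediate early UMIs per cell and 27.8 [22.9–33.5] CPM of the pair, and the middle group of the APOE130-149 library a median of 40 and 93.3 [78.6–110] CPM. The middle group of the control peptide library (median 26) had 30.3 [25.1–36.3] CPM, and the lowest group of the APOE130-149 library (median 19) had 31.96 [23.6–42.3]. The intervals were apart for the first pair of groups and overlapped for the second. The lowest group of the control peptide library (median 12) had 14.7 [11.1–18.9] CPM. Its interval was apart from that of the lowest APOE130-149 group, whose median lay between those of the lowest and middle control peptide groups. The part of immediate early activity in the difference of Hspa1a and Hspa1b between libraries was not tested beyond these values. Over single thinned cells, the correlation of each gene with the list was weak in all libraries.

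**Figure D3:**
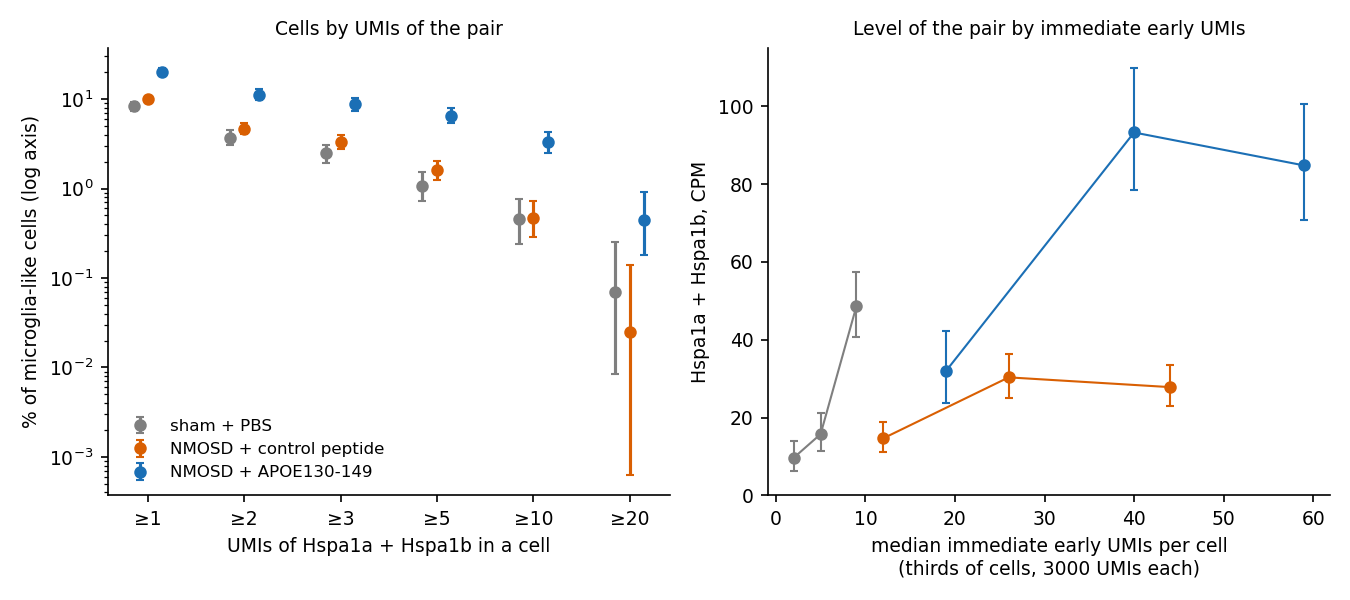
Left, the share of microglia-like cells (log axis) with at least the given number of UMIs of Hspa1a and Hspa1b, with exact 95% Clopper-Pearson intervals, where the APOE130-149 library held 3.31% of cells with at least 10 UMIs against 0.471% with the control peptide. Right, the level of the pair (CPM) in 3 groups of cells ordered by immediate early UMIs at 3000 UMIs per cell, against the median of that count, with exact 95% Poisson intervals; the middle and highest groups of the APOE130-149 library stood at 93.3 and 84.8 CPM.

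Cells in which the pair was detected were compared with the rest for the other chaperones. In the APOE130-149 library, thinned cells with a UMI of the pair had 972 CPM of Hspa8 against 759 without one, a ratio of 1.28 [1.15–1.42]. The ratio was 1.87 [1.23–2.76] for Dnajb1, 1.55 [1.21–1.95] for Dnaja1 and 1.27 [1.03–1.55] for Hsp90aa1, while for Hspa5 it was 1.08 [0.954–1.21]. In sham the ratio was 1.25 [1.10–1.42] for Hspa8, 1.39 [1.08–1.77] for Dnaja1, 0.963 [0.492–1.71] for Dnajb1 and 1.05 [0.908–1.21] for Hspa5. In the control peptide library it was 1.14 [1.03–1.25] for Hspa8, 1.18 [1.07–1.31] for Hsp90ab1, 1.44 [0.945–2.11] for Dnajb1, 0.901 [0.679–1.17] for Dnaja1 and 0.981 [0.878–1.09] for Hspa5. For Hsp90ab1 the ratio was 1.22 [1.07–1.39] in sham and 1.23 [1.09–1.38] with APOE130-149. For Hsp90aa1 it was 1.20 [0.937–1.51] in sham and 1.11 [0.927–1.33] in the control peptide library. Hsph1 had intervals including 1 in every library. Hspb1 had 8 UMIs or fewer in such cells. Its ratios were 23.7 [1.72–328] (sham), 0.297 [0.00741–1.70] (control peptide) and 2.76 [1.09–6.21] (APOE130-149). Hspa8 and Hsp90ab1 were therefore both higher in such cells in all 3 libraries, and the interval for Hspa5 included 1 in all 3. The share of all genes higher in such cells was not computed, so nothing is drawn about chaperones in particular.

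Levels also differed between cell types within a library, most plainly for Hspa8. In monocyte-like cells Hspa8 was measured at 1800 [1666–1942] CPM for sham, 2009 [1901–2121] for the control peptide and 1587 [1460–1722] for APOE130-149. Border-associated macrophage-like cells had 1079 [927–1248], 914 [748–1105] and 930 [759–1128] CPM. It was lowest in neutrophil-like cells at 219, 342 and 258 CPM. Monocyte-like cells were above every other type in each library, while border-associated macrophage-like and microglia-like cells had intervals that did not overlap only in sham. The marker genes themselves took 43.0%, 41.0% and 44.3% of UMIs in neutrophil-like cells, against 2.41% to 2.68% in microglia-like cells. With all marker UMIs left out, Hspa8 in neutrophil-like cells came to 385, 580 and 463 CPM against 679, 849 and 809 in microglia-like cells, still the lower.

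Hsp90ab1 was higher in both macrophage-like and monocyte-like cells than in microglia-like cells, where it had 608, 750 and 672 CPM. Border-associated macrophage-like cells had 1335, 1345 and 1092 CPM and monocyte-like cells 985, 1436 and 1184. The intervals of those 2 types overlapped in both NMOSD libraries. Hspa5 had another order, with 385, 351 and 538 CPM in monocyte-like cells, below the 590, 717 and 672 of microglia-like cells in each library, and 129, 96.8 and 125 in neutrophil-like cells. Dnaja1 in neutrophil-like cells was measured at 161, 143 and 103 CPM against 150, 127 and 131 in microglia-like cells. With marker UMIs left out these became 283, 242 and 184 against 153, 131 and 135, so the order of these types for Dnaja1 depends on the denominator in the APOE130-149 library. Hsph1 was found as 0, 0 and 1 UMI in neutrophil-like cells, and in sham the limit of 3 counts set for a count of 0 is 7.57 CPM, with an exact 95% Poisson upper bound of 9.30 CPM.

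**Figure D4:**
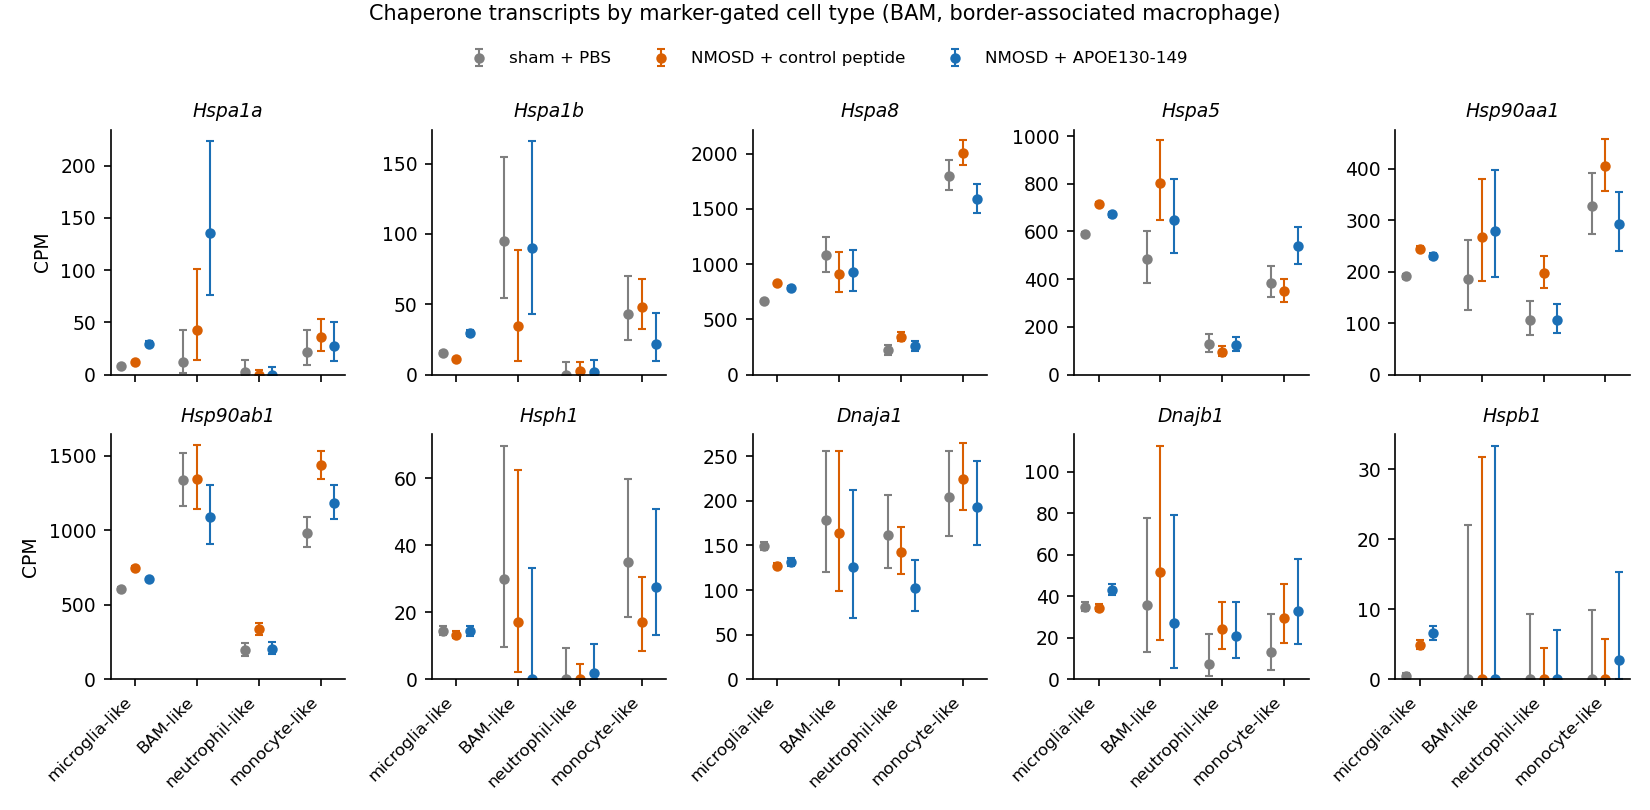
Level of each gene (CPM) by marker-gated cell type and library, with exact 95% Poisson intervals; each panel has its own axis from 0. Hspa8 was highest in monocyte-like cells (1587 to 2009 CPM) and Hspa8, Hspa5 and Hsp90ab1 were lowest in neutrophil-like cells in every library.

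The rarer cell types rest on 15 to 67 cells per library, and the background share of genes apart was not computed for them. In border-associated macrophage-like cells the pair was measured at 107 CPM for sham, 77.6 for the control peptide and 226 for APOE130-149, from 18, 9 and 25 UMIs in 6, 1 and 4 cells. Against the control peptide it was 2.91-fold [1.31–7.08] higher with APOE130-149. With cells of any level of microglia RNA admitted (40, 109 and 57 cells), a choice made after the data were seen, the pair stood at 95.3, 52.7 and 93.998 CPM and that ratio was 1.78 [1.37–2.32]. In monocyte-like cells the pair stood at 64.6, 83.8 and 49.7 CPM, with a ratio of 0.593 [0.327–1.03] for APOE130-149 against the control peptide, and in neutrophil-like cells it was counted as 1, 2 and 1 UMIs. Hspa5 in border-associated macrophage-like cells was 1.66-fold [1.22–2.27] higher with the control peptide than in sham. In neutrophil-like cells Hsp90ab1 was 1.71-fold [1.33–2.23] higher with the control peptide than in sham, at 336 and 197 CPM, Hsp90aa1 1.86-fold [1.32–2.68] and Hspa8 1.56-fold [1.22–2.01] higher. Both HSP90 genes were lower again with APOE130-149, with ratios of 0.615 [0.488–0.771] and 0.539 [0.391–0.735] against the control peptide. Dnaja1 in these cells had a ratio of 0.635 [0.434–0.927] between APOE130-149 and sham. In monocyte-like cells Hspa5 was 1.54-fold [1.26–1.87] higher with APOE130-149 than with the control peptide.

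Other genes of the chaperone network were counted by list in microglia-like cells, beside the 2.65% of all genes apart between the control peptide and sham and the 0.585% apart between the NMOSD libraries. The small heat shock protein list had 2 genes with at least 10 CPM, Hspb3 and Hspb11, and 0 were apart in either main comparison. Of 5 further HSP70 and HSP110 genes with at least 10 CPM, 0 were apart in either. The same held for 20 other HSP90 and co-chaperone genes, 16 genes of the chaperonin list and 3 of the heat shock factor list. The chaperonin list also holds prefoldin genes, Pfdn5 among them. The heat shock factor list also holds Hsbp1, a heat shock factor binding protein. Among 20 other J proteins, Dnajb4 was 1.504-fold [1.39–1.63] higher with the control peptide than in sham, at 44.8 and 29.8 CPM, and 0 were apart between the NMOSD libraries. Among 25 genes of the endoplasmic reticulum chaperones and unfolded protein response 0 were apart in these comparisons. Atf4, a transcription factor of the integrated stress response, had the highest ratio there, at 74.8 CPM for sham, 90.3 for the control peptide and 112 for APOE130-149, a ratio of 1.25 between the last 2 libraries. Between APOE130-149 and sham, Atf4 was 1.504-fold [1.42–1.59] and Dnajb4 1.67-fold [1.53–1.83] higher. The 16 genes of the chaperonin list all had ratios below 1 between APOE130-149 and the control peptide, from Pfdn5 at 0.888 to Cct7 at 0.978. Their median log2 ratio was −0.11, where all genes tested had a median of 0.01 and a 25th percentile of −0.07. The share of all genes with a ratio below 1 is not given here.

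The extremes of the other lists were small. Between the control peptide and sham they ran from Hyou1 (0.806) to Hspa13 (1.03) in HSP70 and HSP110 genes. In the same comparison they ran from Ahsa2 (0.809) to Bag1 (1.21) in HSP90 and co-chaperone genes. They ran there from Hsf2 (0.743) to Hsbp1 (1.06) in the heat shock factor list. Between the NMOSD libraries, they ran from Hspa13 (0.981) to Hyou1 (1.15), from Bag1 (0.934) to Trap1 (1.15), from Dnajc15 (0.874) to Dnajb5 (1.28) among J proteins and from Hsbp1 (0.940) to Hsf2 (1.14).

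**Figure D5:**
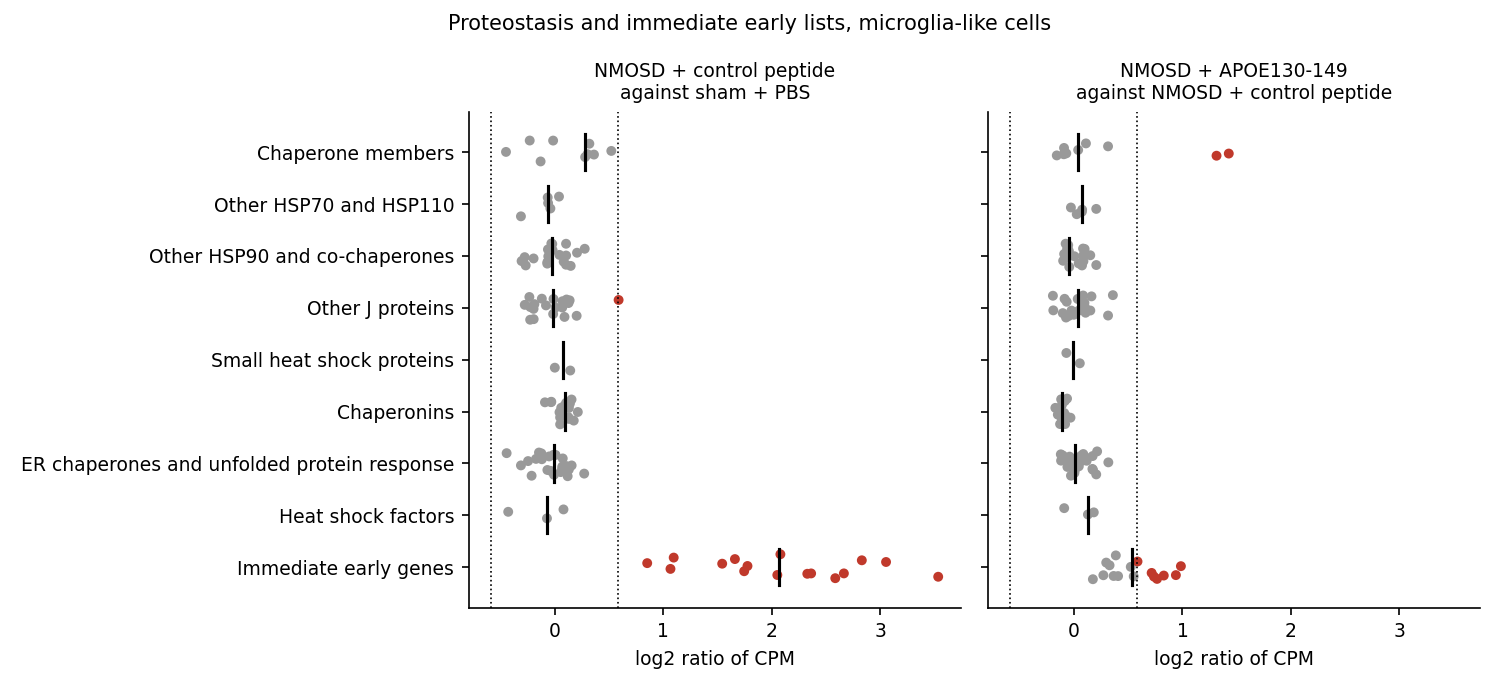
Log2 ratio of CPM of each gene with at least 10 CPM in microglia-like cells, by list, in the 2 main comparisons; red points are at least 1.5-fold apart with an interval excluding 1, black bars are list medians and dotted lines mark 1.5-fold. Apart from the immediate early list, red points are Dnajb4 against sham and Hspa1a and Hspa1b between the NMOSD libraries.

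Patterns over the 12 sums of 3 libraries and 4 cell types were most alike, by Pearson r of log2(CPM + 10) among 5829 genes, to Eif3i (r = 0.985), Cct5 (0.982), Wdr89 (0.980), Eef1b2 and Naca (both 0.978) for Hspa8. For Hspa5 they were Ext2 (0.988), Gna13 (0.987), Slc39a10 and Ighm (both 0.984) and Colgalt1 (0.979). These 12 sums share libraries and cells, so the values describe likeness only.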

How the data were processed

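The 3 deposited matrices hold UMI counts, whole numbers for each gene in each barcode and not normalized, per the file headers and the values. The libraries were made with a 10x single-cell 3′ v.2 kit, per the labels' protocols. Cell Ranger 5.0.1, Seurat 4.3.0 and mm10 are named in the submitters' processing notes and cellranger 7.0.1 in the file headers, and whether introns or strand were used in counting is not given in the sources used here. The features and barcodes files, other deposited values, gave names only.

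The filter on cells asked for 500 or more genes and 10% or less mitochondrial UMIs. Gates used UMIs of marker lists per 10000, in cells with at least 2000 UMIs. Microglia-like cells needed at least 100 and 6 markers, and other types had their own minimum (20 for border-associated macrophages and monocytes, 500 for neutrophils) and limits on other lists. These thresholds were set after marker values were seen. No doublet caller was run, and doublets were removed only by these limits, with removal of deep cells as an alternative. Counts of a type were summed per library and scaled to CPM. All genes were scaled and called together, with 1 library per group and no test, so edgeR 4.0.16 and DESeq2 1.42.0 (R 4.3.3) gave only alternative scaling factors. Shares at equal depth used 3000 UMIs per cell. The ratio code was tested on simulated counts. Coordinates came from a GRCm38 annotation and promoters from RefSeq. Python 3.11.15, numpy 2.4.6, scipy 1.17.1, pandas 2.3.3 and matplotlib 3.10.9 were used.

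The 10 genes, the 8 lists and the rule for named genes were chosen with earlier results of these data known. The rule named all 10 genes, the highest and lowest ratio of each list in the 2 main comparisons, and the 5 genes most like Hspa8 and Hspa5; Dnajb4 and Atf4 fall under it. Values in other cell types were chosen for the text after they were seen.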

Additional observations from a re-analysis of the deposited data

How the results depend on the processing

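No paired analysis was possible because each group has 1 library. Between APOE130-149 and the control peptide, Hspa1a and Hspa1b were the 2 genes apart under every setting tried, with log2 ratios of 1.11 to 1.4997 and 1.33 to 1.69. Between the control peptide and sham the count was 0, and 1 with the marker gate made stricter, with no gate, without cells above 2 times the median UMIs, with TMM or median-of-ratios scaling and with the mean of per-cell CPM (Hspa1a each time, log2 ratio 0.88, 0.64, 0.77, 0.59, 0.60 and 0.65 against 0.52), and 1 with no CPM minimum (Hspb1). Between APOE130-149 and sham it was 2, 1 at 2-fold (Hspa1a) and 3 with no CPM minimum (Hspb1 added). The cause was not tested. Of 30 ratios 27 kept their sign in all settings; Hspa1a against sham came to −0.03 when summed with Hspa1b, Dnajb1 in the same comparison ranged from −0.04 to 0.10 and Hsph1 between APOE130-149 and sham from −0.13 to 0.03.

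Over all genes, 225, 49 and 239 were apart in the comparisons of control peptide with sham, APOE130-149 with control peptide and APOE130-149 with sham, against 316, 117 and 406 in thinned cells, 83, 11 and 96 at 2-fold and 1275, 763 and 1252 with no CPM minimum. Of these genes 58.7% were higher in the first comparison, against 74.9% with TMM, 76.4% with median-of-ratios scaling and 44.0% in thinned cells. Depth limits the rarer cell types, where the limit of 3 counts set for a count of 0 is 3.63 to 27.1 CPM.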

Other observations

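Kept barcodes with under 2000 UMIs were in no comparison. They made up 24.5% of kept sham barcodes, 7.005% of control peptide barcodes and 7.65% of APOE130-149 barcodes. In sham their Hspa8 level was 963 [910–1019] CPM and their Hsp90ab1 level 332 [301–365], against 663 and 608 CPM in microglia-like cells. With the control peptide the values were 922 [835–1016] for Hspa8 and 533 [467–605] for Hsp90ab1, against 827 and 750. In the APOE130-149 library the values were 564 [462–681] for Hspa8 and 532 [433–647] for Hsp90ab1, against 787 and 672. Hspa8 was thus above the microglia-like level in sham and with the control peptide and below it with APOE130-149, while Hsp90ab1 was below it in all 3. The make-up of these barcodes differed between libraries (order: sham, control peptide, APOE130-149). Malat1 stood at 5284, 28432 and 29373 CPM in them, against 24594, 21499 and 20390 in microglia-like cells. Their summed choroid plexus markers were 10.3, 6202 and 990 CPM, and their neutrophil markers 8761, 11487 and 17726. They are thus not a like class across libraries, and the part of this in the levels was not tested.

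Cells with choroid plexus markers, 31 with the control peptide and 7 with APOE130-149, carried Hspa8 at 1195 [1088–1310] and 1191 [980–1435] CPM and 3 and 0 UMIs of Hspa1a and Hspa1b together.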
